A study of Mus musculus with 12 samples.

Results

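DNA transposon loci are the copies of DNA transposons that the deposited repeat table lists in the mouse genome. They were taken here as every locus whose family name is DNA or begins with DNA/ and that had a mean of at least 20 reads over the 6 libraries. The rule kept 8229 of 105802 DNA transposon loci (7.78%). The same minimum kept 234605 of the 4929385 repeat loci of the table, and DNA transposons made up 3.51% of these. By superfamily, 6511 of the loci were hAT, 1545 were TcMar and 173 belonged to other families. The loci were chosen by their mean read number, so their level is given below as a description.

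DNA transposons move by a cut-and-paste mechanism, in which a transposase binds the ends of the element, excises it and inserts it elsewhere. The hAT and Tc1/mariner (TcMar) superfamilies are the most common kinds in mammals, and Charlie and Tigger are their old, broken copies, most of them short and scattered through introns and between genes. Such copies are therefore often carried along in the RNA of the gene around them. N6-methyladenosine (m6A) is a methyl mark on RNA, and ALKBH5 is an enzyme that removes it.

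The libraries come from RNA of the chromatin-associated fraction of E14TG2a cells, an established mouse embryonic stem cell line, which is rich in transcripts still being made. The 3 groups are wild-type cells (WT), Alkbh5 knockout cells (KO) and cells in which a stretch of Alkbh5 named cIDR is deleted (ΔcIDR), all grown with LIF and 2 inhibitors, with 2 libraries each. The series has 12 samples, since each replicate was split into input and immunoprecipitated RNA, and the repeat table has 6 columns. These were read as the m6A immunoprecipitated libraries, with the columns named KI taken as ΔcIDR by elimination. The KO columns share the name KO6 with no word on its meaning, and whether they come from 1 line or several is not known here. The submitters also call the table an expression matrix, and the unmodified spike-in had more reads (1729 to 5127) than the m6A spike-in (814 to 1870) in each library, so whether the libraries are immunoprecipitated ones is not settled by the files. With no column read as input, more m6A, more RNA and more gene copies cannot be told apart in any value below. Nothing says that replicates came from separate cultures, so p-values measure the spread between these libraries.

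Each library held between 20922839 and 26267351 repeat reads, of which the DNA transposon loci took 2.45% to 2.69%. The deposited values are these reads times 1 factor per library, set by the m6A spike-in. Per read it was 2.32 and 2.45 for the WT libraries, 1.97 and 1.45 for KO, 3.33 and 3.2 for ΔcIDR. Because a factor moves every locus of a library together, each comparison is given on the deposited scale and after centring each library on its own median locus. The correlation of log2 values between the replicates of a group, across the 8229 loci, was 0.88 in WT, 0.92 in KO and 0.89 in ΔcIDR. Loci are not independent replicates, and all share the libraries' depth.

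The loci belong to 18 families. Among hAT, the Charlie family had 6099 loci, Tip100 262, Blackjack 76, unclassified hAT 30, Tag1 29, Ac 14 and hAT19 1. Among TcMar, Tigger had 1391, Mariner 84, Tc2 60 and Tc1 10. The others were 125 unclassified DNA elements, 14 Kolobok, 13 PiggyBac, 12 Crypton, 5 Crypton-A, 3 PIF-Harbinger and 1 MULE-MuDR. No locus of the Merlin, unclassified TcMar or TcMar-Pogo families reached the minimum, from 102, 84 and 15 loci listed. The share of a family's loci that reached it was 8.27% for hAT-Charlie and 8.13% for TcMar-Tigger, against 3.77% for hAT-Tip100, 3.86% for hAT-Blackjack, 12% for hAT-Tag1 and 11.9% for TcMar-Mariner.

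Most of the loci were short and thinly covered. Their length ran from 27 to 1572 bp with a median of 185 bp, and their median mean read number was 39.5. Below 50 reads lay 5185 loci (63.0%), 1082 had at least 100 and 10 had at least 1000. At the threshold itself, 53 loci had a mean of exactly 20 reads, and 59 loci just outside it had 19.8. The minimum was met in each of the 3 groups by 6384 loci (77.6%), in 2 groups by 1433 and in 1 group alone by 412. Of these, 42 met it in WT, 335 in KO and 35 in ΔcIDR. The minimum is on raw reads, and the KO libraries had the most repeat reads (26267351 and 23336824, against 20922839 to 21908485 in the others). The same split over all repeat loci is not given here. Per kilobase of locus, the median level was 10.7 RPM for hAT (RPM against the library's repeat reads), 9.25 for TcMar and 12.9 for the other families. The ranges between the quartiles overlapped, at 6.57 to 19.2, 5.53 to 16.5 and 8.29 to 22.3.

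The loci lay near each other. Another of the 8229 was within 1 kb of 918 (11.2%), in 759 cases of the same family, so some neighbours may be pieces of 1 insertion. Within 50 kb there was another for 6145 loci (74.7%). Chromosome 11 had the densest set, with 656 of its 5648 DNA transposon loci (11.6%) above the minimum. On the X chromosome the share was 145 of 5939 (2.44%), and on Y 1 of 887 (0.113%).

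A single hAT-Tip100 copy at chr17:40153889-40154054 (GRCm39, coordinates as deposited) held more reads than any other of these loci. It had 73313 and 69351 reads in WT cells, 74655 and 76242 in KO cells and 71037 and 69829 in ΔcIDR cells, which is 10.6% to 13.8% of the reads of the 8229 loci. Both KO libraries had more raw reads there than the other 4. On the deposited scale KO minus WT was −0.41 ± 0.34 log2 (SE; limma, adjusted p = 0.587), and centred it was −0.12 ± 0.10 (limma, adjusted p = 0.535). ΔcIDR minus KO was 0.85 ± 0.34 as deposited (limma, adjusted p = 0.0474) and 0.21 ± 0.10 centred (limma, adjusted p = 0.152). The signal did not stop at the element. Simple repeats at chr17:40155501-40155535 and chr17:40159258-40159315 had means of 26417 and 16480 reads, and a deposited m6A interval at chr17:40154057-40154260, which begins just past the copy, had 161723 to 176390. The LINE-1 copy on its other side, chr17:40148003-40153679, had a mean of 41.3 reads over 5676 bp.

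The next hAT loci by level per kilobase were a hAT-Ac copy at chr1:133584604-133584732 and a hAT-Charlie copy at chr5:53713302-53713416, with 639 and 349 RPM per kb. The hAT-Ac copy had 1857 and 1607 reads in WT cells, 1920 and 1688 in KO cells and 1780 and 2215 in ΔcIDR cells. A second hAT-Ac piece, chr1:133585165-133585771, lies within 1 kb of it and had 2564 and 2253, 2471 and 2270, and 2898 and 3047 reads in the same order. Both pieces lay wholly under deposited m6A intervals. ΔcIDR exceeded KO at the second piece by 1.28 ± 0.31 log2 on the deposited scale (limma, adjusted p = 0.000646) and by 0.64 ± 0.12 after centring (limma, adjusted p = 0.000346), and no library of the 2 groups overlapped.

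The highest TcMar loci per kilobase were Tigger copies at chr7:5070194-5070296 and chr17:37315022-37315177 and a Tc2 copy at chr14:30904545-30904665. The chr7 Tigger copy had 1600 and 1624 reads in WT cells, 2202 and 1884 in KO cells and 1891 and 2093 in ΔcIDR cells, and the Tc2 copy 501 and 471, 693 and 676, and 426 and 452. As deposited, the chr7 copy was higher in ΔcIDR than in KO by 0.91 ± 0.31 log2 (limma, adjusted p = 0.0172), and centred neither copy passed a test. The chr17 Tigger copy had 2695 and 2577 reads in WT cells, 2532 and 2393 in KO cells and 3326 and 3379 in ΔcIDR cells. It was higher in ΔcIDR than in KO by 0.76 ± 0.11 log2 after centring (limma, adjusted p = 3.46e-05), while the repeats within 25 kb of it differed by 0.17. A long Tigger copy at chr15:74578022-74579283, 1261 bp and wholly under an m6A interval, had 1529 and 1124, 1823 and 1634, and 1243 and 1710 reads. Its groups passed no test on either scale. Among the 10 loci of at least 1000 reads, a Charlie copy at chr7:78557192-78557418 was called lower in KO than in WT after centring (−0.41 ± 0.13, limma, adjusted p = 0.0461). Its reads were 1352 and 1302, 1253 and 1046, and 1489 and 1806. Another, at chr12:109606974-109607168, was lower by −0.52 ± 0.15 (limma, adjusted p = 0.0307), with 1705 and 1284, 1288 and 1085, and 897 and 1261 reads, and its neighbouring repeats had −0.63. The highest loci of the other families were unclassified elements at chr17:30731385-30731489 and chr11:88591621-88591729 and a Kolobok copy at chr6:33342378-33342568, with means of 252, 225 and 345 reads. The 3 longest loci were Tigger copies at chr6:7857247-7858819 and chr6:89484688-89486238 and a Charlie copy at chrX:101436878-101438444, with means of 173, 97.3 and 26.5 reads.

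Few of the loci lay under an m6A interval. Of the 8229 loci, 85 (1.03%) overlapped 1 of the 74299 deposited intervals, against 7.14% of the 226376 other repeat loci with the same minimum. At least 50% of the locus was covered in 0.595% of DNA transposon loci and 4.46% of the other repeats. The 2 sets were not matched for length or read number. The share was 0.891% for hAT (58 loci), 1.68% for TcMar (26) and 0.578% for the others (1). The loci under intervals had a median of 67.3 reads, against 39.3 for those outside. Which step of the interval calls set these shares is not stated in the sources used here.

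The first comparison asks what the loss of ALKBH5 did to the signal of these loci. On the deposited scale, KO was lower than WT at 224 loci and higher at 10 of the 8229 (limma, adjusted p below 0.05), or 2.72% and 0.122%. Over all repeat loci tested the same calls came to 3.48% and 0.236%, in all 3.72%, so the share lower in KO was a little under the background. hAT had 174 lower and 5 higher, TcMar 44 and 4, and the others 6 and 1. The median locus lay −0.23 ± 0.30 log2 from WT (SE over libraries), and the median of all repeat loci −0.28 ± 0.30. The large error came from the KO libraries: relative to WT the median of the DNA transposon loci was 0.08 in KO replicate 1 and −0.52 in KO replicate 2, as the plot of library medians shows.

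**Figure D1:**
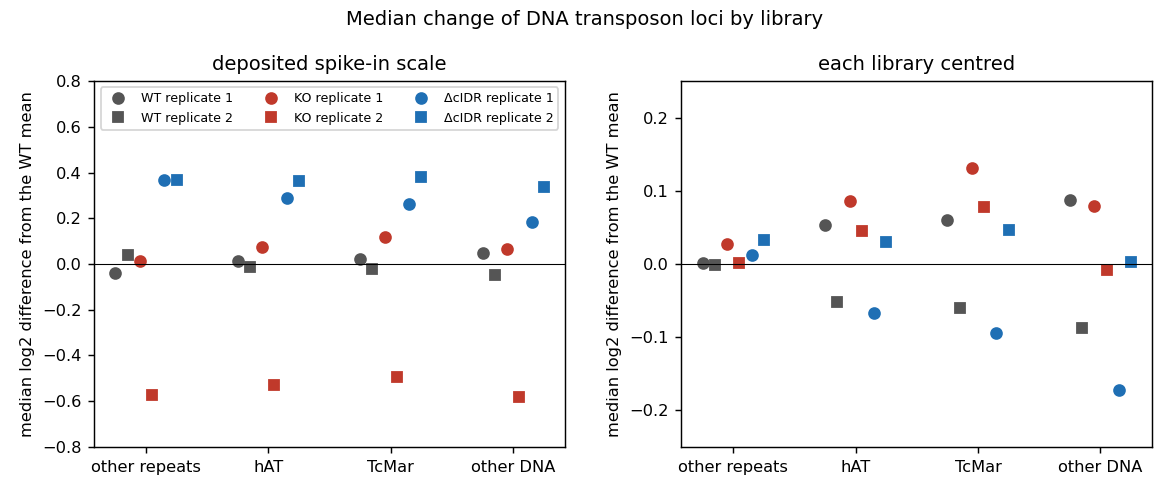
Median log2 difference from the WT mean in each of the 6 libraries (points), for other repeat loci, hAT, TcMar and other DNA transposon loci, on the deposited scale (left) and with each library centred on its median locus (right, on a smaller axis). On the left the 2 KO replicates lie apart in every set, and on the right the KO libraries overlap those of WT for hAT and the other DNA families and lie above both WT libraries for TcMar (0.13 and 0.08 against 0.06 and −0.06).

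After centring, KO was higher than WT at 249 loci and lower at 257 (limma, adjusted p below 0.05), 3.03% and 3.12%. Of all repeat loci 3.13% were called higher and 4.18% lower. The share of calls that were higher thus moved from 4.27% to 49.2% with the scale. The centred median was 0.06 ± 0.06 log2, against 0.01 ± 0.01 for all repeat loci. hAT had 194 higher and 197 lower (6.01% called), TcMar 48 and 54 (6.60%) and the others 7 and 6 (7.51%), against 7.31% of all repeat loci. The share called rose with depth, from 3.86% of loci with 20 to 50 reads to 8.21% with 50 to 100 and 13.4% above.

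These counts depended on single libraries. On the deposited scale 234 loci were called with all 6 libraries. Dropping KO replicate 1 gave 1428 and dropping KO replicate 2 gave 104. Dropping WT replicate 1 or 2 gave 14 or 10, and dropping ΔcIDR replicate 1 or 2 gave 92 or 91. After centring 506 were called. This became 291 or 199 with WT replicate 1 or 2 left out, and 114 or 102 with KO replicate 1 or 2 left out. A group left with 1 library was assumed to vary like the others. The shares of all repeat loci called with a library left out are not given here. Such moves, in this comparison and those below, are thus not shown to be particular to DNA transposon loci. edgeR on the recovered reads called 219 loci on the deposited scale, where it called 3.5% of all repeat loci, and 596 with TMM, where it called 8.45%.

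The 5 loci with the largest fall in KO were all hAT-Charlie copies with few reads. The copy at chr5:112996100-112996309 had 28 and 26 reads in WT cells, 0 and 5 in KO cells and 27 and 36 in ΔcIDR cells, and KO minus WT was −3.15 ± 0.61 log2 (limma, adjusted p = 7.86e-05). At chr18:82581915-82582121 there were 42 and 25 reads in WT cells, 6 and 1 in KO cells and 28 and 40 in ΔcIDR cells, a difference of −2.98 ± 0.55 (limma, adjusted p = 2.34e-05). Both KO libraries lay far below the other 4 at each copy. The 581 bp copy at chr3:49050052-49050633 had 53 and 37, 9 and 5, and 38 and 33 reads, with −2.73 ± 0.48 (limma, adjusted p = 6.15e-06). The copies at chr12:17898983-17899205 and chr5:128673011-128673231 had 27 and 28 or 36 and 39 reads in WT and 2 and 7 or 5 and 9 in KO. In ΔcIDR they had 32 and 32 or 27 and 19. All 5 were also called lower after centring. Values have 5 added before the log, which understates folds of loci this low.

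The 5 largest rises in KO came from 4 families. A hAT-Charlie copy of 704 bp at chr16:57156074-57156778 had 3 and 6 reads in WT cells, 47 and 39 in KO cells and 8 and 19 in ΔcIDR cells, and KO minus WT was 2.34 ± 0.62 log2 (limma, adjusted p = 0.00975). A Tigger copy at chr11:31313779-31314016 had 23 and 17, 127 and 85, and 20 and 29 reads, with 1.79 ± 0.41 (limma, adjusted p = 0.00184). In both, the KO libraries stood above all 4 others. A Mariner copy of 1170 bp at chr19:58370213-58371383 had 42 and 24 reads in WT cells, 151 and 105 in KO cells and 27 and 23 in ΔcIDR cells, and its KO minus WT difference was 1.43 ± 0.40 (limma, adjusted p = 0.0159). The remaining loci were a hAT-Charlie copy at chr6:52513374-52513598, with 16 and 4 reads in WT and 52 and 64 in KO, and a Kolobok copy at chr8:79907650-79907856, with 31 and 9 in WT and 78 and 59 in KO. After centring all 5 were again called higher, with adjusted p between 0.000128 and 0.00945 (limma). At the chr16 and chr6 Charlie copies no WT or ΔcIDR library reached 20 reads. Both met the minimum only through KO, so the selection favoured their rise in KO.

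**Figure D2:**
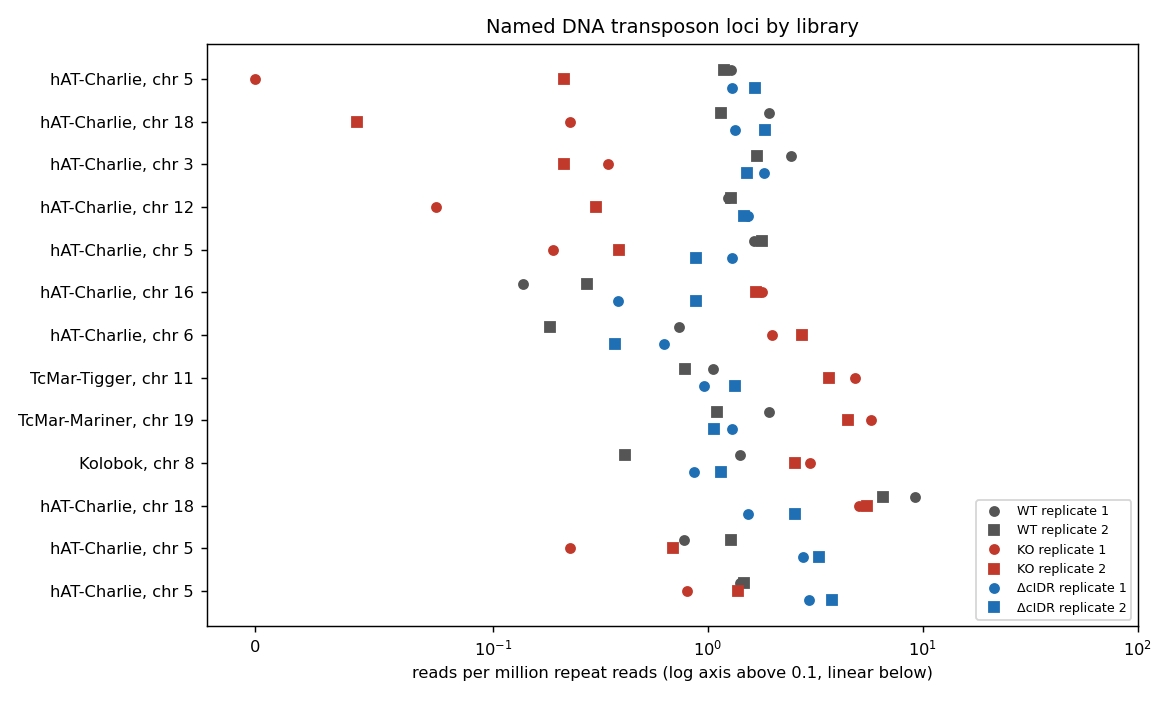
Level in each of the 6 libraries in RPM against its repeat reads (circles, replicate 1, squares, replicate 2, log axis above 0.1 and linear below) for the 5 loci with the largest fall in KO, the 5 with the largest rise in KO and the 3 with the smallest p between ΔcIDR and WT, from top to bottom. In the upper 5 both KO libraries lie left of the other 4, in the next 5 right of them, and in the 11th locus the ΔcIDR libraries lie below the rest.

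The 224 loci lower in KO on the deposited scale had a median KO minus WT of −1.49 log2 and a median ΔcIDR minus WT of 0.37, where the median of all 8229 loci was 0.31. After centring, the loci lower in KO had medians of −1.13 and 0.04, and those higher in KO 1.03 and 0.01. Both differences use the same WT libraries.

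The next comparison asks what deleting the cIDR alone did. Between ΔcIDR and WT, 1 locus was called higher and 1 lower on the deposited scale (limma, adjusted p below 0.05), both hAT-Charlie, where 0.084% and 0.0213% of all repeat loci were called. At an unadjusted p below 0.05 there were 708. The median locus lay 0.31 ± 0.04 log2 above WT, with 0.35 ± 0.04 for all repeat loci, and −0.03 ± 0.08 after centring. Centred, 0 loci were higher and 8 lower (limma, adjusted p below 0.05), against 0.146% and 0.149% of all repeat loci, and edgeR on TMM-scaled reads also called 0 higher and 8 lower, against 0.175% and 0.156% of all repeat loci (0.331% in all). On the deposited scale edgeR called 1 higher and 0 lower, where 0.118% of all repeat loci were called, and 629 had an unadjusted p below 0.05. At an unadjusted p below 0.05 there were 793 after centring with limma and 734 with edgeR on TMM-scaled reads. The share of all repeat loci at an unadjusted p below 0.05 is not given here, so the unadjusted counts are not read as a result about these loci. Leaving out KO replicate 1 or 2, whose spread enters the fit, brought the deposited count from 2 to 266 or 270. It was 0 with WT replicate 1, WT replicate 2 or ΔcIDR replicate 1 left out, and 1 with ΔcIDR replicate 2 left out. The centred count of 8 became 3 when either WT library was dropped, 4 when either KO library was dropped and 25 when ΔcIDR replicate 2 was dropped.

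The locus lower in ΔcIDR was the Charlie copy at chr18:50989551-50989774, with 202 and 142 reads in WT cells, 133 and 128 in KO cells and 32 and 55 in ΔcIDR cells. ΔcIDR minus WT was −1.52 ± 0.36 log2 on the deposited scale (limma, adjusted p = 0.0314) and −1.87 ± 0.24 after centring (limma, adjusted p = 0.000144). Both ΔcIDR libraries were below all others. The locus higher in ΔcIDR, at chr5:138360729-138360931, had 17 and 28 reads in WT cells, 6 and 16 in KO cells and 58 and 71 in ΔcIDR cells, with 1.91 ± 0.46 (limma, adjusted p = 0.0413), and after centring it no longer passed (1.56 ± 0.41, limma, adjusted p = 0.11). The third smallest p belonged to a copy at chr5:121726496-121726673, with 31 and 32, 21 and 32, and 62 and 82 reads, which did not pass (1.57 ± 0.41, limma, adjusted p = 0.0849).

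Of the other loci lower in ΔcIDR than in WT after centring, those given here had few to moderate reads. The 1 on chromosome 4 and 1 of the 2 on chromosome 8 are not described. A Tigger copy at chr3:37745332-37745426 had 65 and 83 reads in WT cells, 90 and 70 in KO cells and 16 and 27 in ΔcIDR cells, and differed by −1.65 ± 0.29 log2 (limma, adjusted p = 0.00584). A Charlie copy at chr14:76888684-76888853 had 73 and 86, 140 and 130, and 21 and 30 reads, with −1.50 ± 0.25 (limma, adjusted p = 0.00394). The ΔcIDR libraries lay below all others at both. The same held for a Tigger copy at chr8:43723564-43723844, with 29 and 23, 61 and 45, and 5 and 6 reads, a Charlie copy at chr6:32796613-32796785, with 43 and 35, 84 and 72, and 12 and 14, and the longest locus, the Tigger copy at chr6:7857247-7858819. That copy had 175 and 171, 270 and 255, and 79 and 90 reads (−0.92 ± 0.19, limma, adjusted p = 0.0228), and the repeats around it had −0.51.

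The comparison of the 2 mutants gave the most calls. On the deposited scale ΔcIDR was higher than KO at 1738 loci and lower at 69 (limma, adjusted p below 0.05), which is 21.1% and 0.838%, with 26.7% and 0.788% over all repeat loci. The median difference was 0.55 ± 0.31 log2, and 0.63 ± 0.29 for all repeat loci. After centring the median was −0.09 ± 0.06, and 563 loci were higher and 831 lower. Those are 6.84% and 10.1% of the loci, with 9.81% and 8.53% over all repeat loci, so the share of calls that were higher went from 96.2% to 40.4% with the scale. By superfamily the centred counts were 462 higher and 637 lower in hAT, 93 and 176 in TcMar and 8 and 18 in the others. edgeR called 1671 loci on the deposited scale and 1448 with TMM, where it called 25.7% and 18.8% of all repeat loci.

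The total of 1807 deposited calls became 1091 or 1089 when WT replicate 1 or 2 was dropped, 3645 or 948 when KO replicate 1 or 2 was, and 356 or 414 when ΔcIDR replicate 1 or 2 was. The centred total of 1394 fell to 473 or 567 when KO replicate 1 or 2 was dropped and to 869 when ΔcIDR replicate 1 was.

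The 5 loci with the largest excess in ΔcIDR over KO included the chr5:112996100 and chr18:82581915 Charlie copies and the chr5:138360729 copy given above, with 3.77 ± 0.61, 3.46 ± 0.55 and 3.30 ± 0.46 log2 on the deposited scale. A Tigger copy at chr1:9012222-9012459 had 33 and 20 reads in WT cells, 8 and 2 in KO cells and 46 and 35 in ΔcIDR cells (3.41 ± 0.53, limma, adjusted p = 2.21e-08). A Charlie copy at chr2:164285593-164285759 had 18 and 28, 7 and 1, and 38 and 28 reads (3.34 ± 0.58, limma, adjusted p = 8.36e-07). In all 5 the KO libraries lay below every WT and ΔcIDR library, and at the chr5:138360729 copy ΔcIDR was above WT as well.

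The 5 loci with the largest deficit in ΔcIDR were of the hAT-Charlie, hAT-Tip100 and Crypton families. The Charlie copy at chr6:134288163-134288330 had 16 and 19 reads in WT cells, 68 and 76 in KO cells and 0 and 11 in ΔcIDR cells, with ΔcIDR minus KO at −3.16 ± 0.56 log2 (limma, adjusted p = 1.75e-06). The copy at chr6:4958752-4958962 had 18 and 11, 46 and 42, and 1 and 4 reads, and a 651 bp copy at chr8:79770491-79771142 had 28 and 18, 90 and 57, and 7 and 6. A Tip100 copy at chr5:3498225-3498399 had 11 and 5 reads in WT cells, 59 and 46 in KO cells and 1 and 10 in ΔcIDR cells. The Crypton copy at chr9:48157048-48157302 had 23 and 18, 59 and 47, and 8 and 2. KO was the highest group at all 5. At all but the Tip100 copy both ΔcIDR libraries were also below both WT libraries, though ΔcIDR minus WT was called at none of the 5 on either scale. At the chr6 Charlie copies and the Tip100 copy no WT or ΔcIDR library reached 20 reads. They met the minimum only through KO, so the selection favoured their excess in KO.

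The changes were uneven between chromosomes. On chromosome 6 the 585 loci had a median KO minus WT of 0.40 ± 0.07 log2 after centring and a median ΔcIDR minus WT of −0.18 ± 0.09. On chromosome 8 the 477 loci had 0.37 ± 0.05 and −0.24 ± 0.04. On chromosome 11 the 656 loci had 0.16 ± 0.05 and −0.05 ± 0.06. The other repeat loci of these chromosomes had 0.34, 0.31 and 0.10 for KO minus WT and −0.14, −0.17 and 0.04 for ΔcIDR minus WT. Of the other chromosomes, without Y, each had a centred median between −0.10 and 0.10 for KO minus WT. On the deposited scale the 1062 loci of chromosomes 6 and 8 had 0.09 ± 0.32 for KO minus WT and 0.14 ± 0.04 for ΔcIDR minus WT. All 8229 loci had −0.23 ± 0.30 and 0.31 ± 0.04 on that scale. Chromosome number, RNA level and m6A cannot be told apart here.

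**Figure D3:**
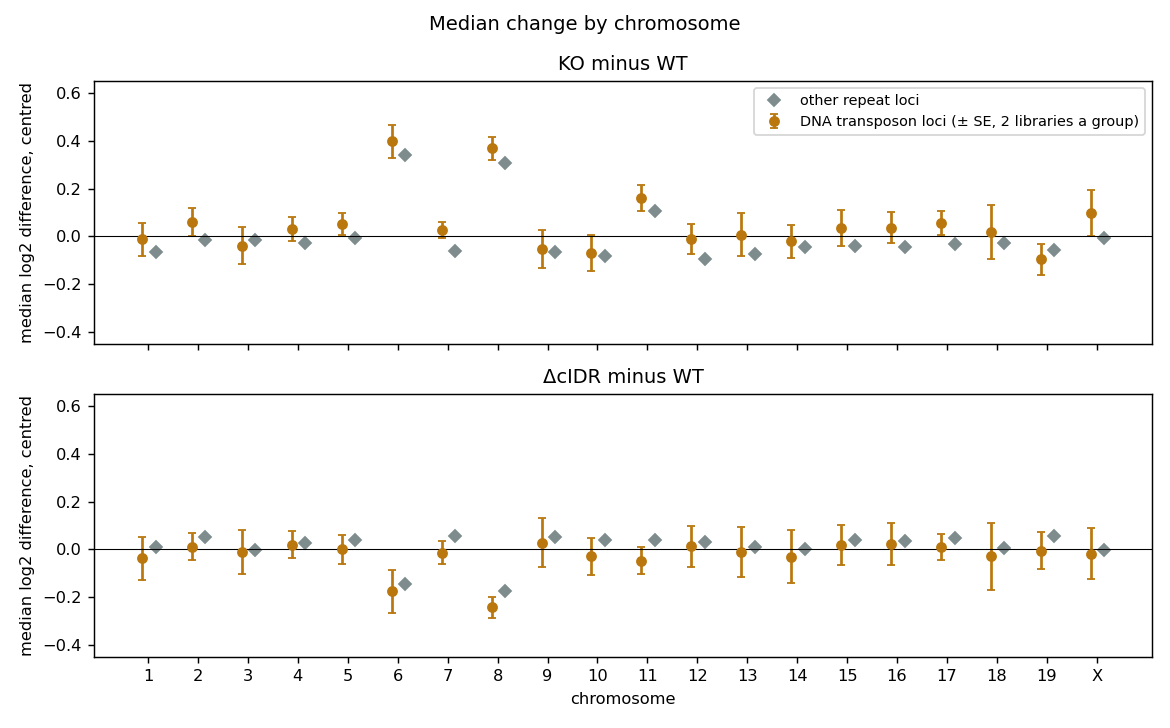
Median log2 difference after centring, by chromosome, of the DNA transposon loci (orange, with the SE over libraries) and of all other repeat loci (grey), for KO minus WT (top) and ΔcIDR minus WT (bottom). Chromosomes 6, 8 and 11 stand above the others in KO, with 0.40, 0.37 and 0.16, and chromosomes 6 and 8 below them in ΔcIDR, with −0.18 and −0.24, and the other repeats lie close by.

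After centring, the rise in KO ran along the whole of chromosomes 6 and 8. In bins of 10 Mb, the median centred KO minus WT was positive in all 15 bins of chromosome 6, from 0.22 to 0.76. It was also positive in all 13 bins of chromosome 8, from 0.19 to 0.67. On chromosome 11 it was 0.26 to 0.72 in the bins between 10 and 60 Mb and −0.08 to 0.19 in the rest. The highest bins of chromosomes 6 and 8 hold 7 and 4 loci, and over bins of at least 20 loci the ranges were 0.22 to 0.57 and 0.19 to 0.50.

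These chromosomes carried many of the calls. They hold 1718 of the 8229 loci (20.9%), but 128 of the 249 loci called higher in KO after centring (51.4%) and 30 of the 257 called lower (11.7%). Of the 831 loci lower in ΔcIDR than in KO, 422 (50.8%) lay there. Of the 8 loci lower in ΔcIDR than in WT, 4 did. Without the 3 chromosomes, the centred medians of the loci were 0.01 ± 0.06 for KO minus WT, −0.00 ± 0.08 for ΔcIDR minus WT and −0.01 ± 0.06 for ΔcIDR minus KO. The centring was still on all chromosomes, and the other repeat loci without the 3 had −0.04, 0.03 and 0.07. DNA transposon loci minus other repeats thus moved little, from 0.060 to 0.052 log2 in KO minus WT. The contrast went from −0.045 to −0.038 in ΔcIDR minus WT and from −0.104 to −0.089 in ΔcIDR minus KO. With the libraries centred again without the 3 chromosomes, 307, 5 and 870 of the 6511 remaining loci were called. With all chromosomes it was 506, 8 and 1394 of 8229. The share of all repeat loci called without these chromosomes is not given here, so the fall is not read as particular to DNA transposon loci.

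The loci moved with the other repeats around them. For 7840 loci at least 5 repeats of other classes with the same minimum lay within 25 kb on either side, with a median of 21. The median KO minus WT of these neighbours had the same sign as that of the locus in 5744 cases (73.3%), and across loci r was 0.70. For the 1070 of them with at least 100 reads r was 0.79, and 94.4% lay within 0.5 log2 of their neighbours. Of the 231 loci called lower in KO after centring, 227 had neighbours that were lower too, with a median of −1.12 for the loci and −0.71 for the neighbours. Of the 238 called higher, 232 had neighbours that were higher, with medians of 1.01 and 0.58. For ΔcIDR minus WT r was 0.40, and for ΔcIDR minus KO 0.75. A locus and its neighbours are measured in the same libraries and can lie in 1 transcript, and the r values describe these loci without a test.

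**Figure D4:**
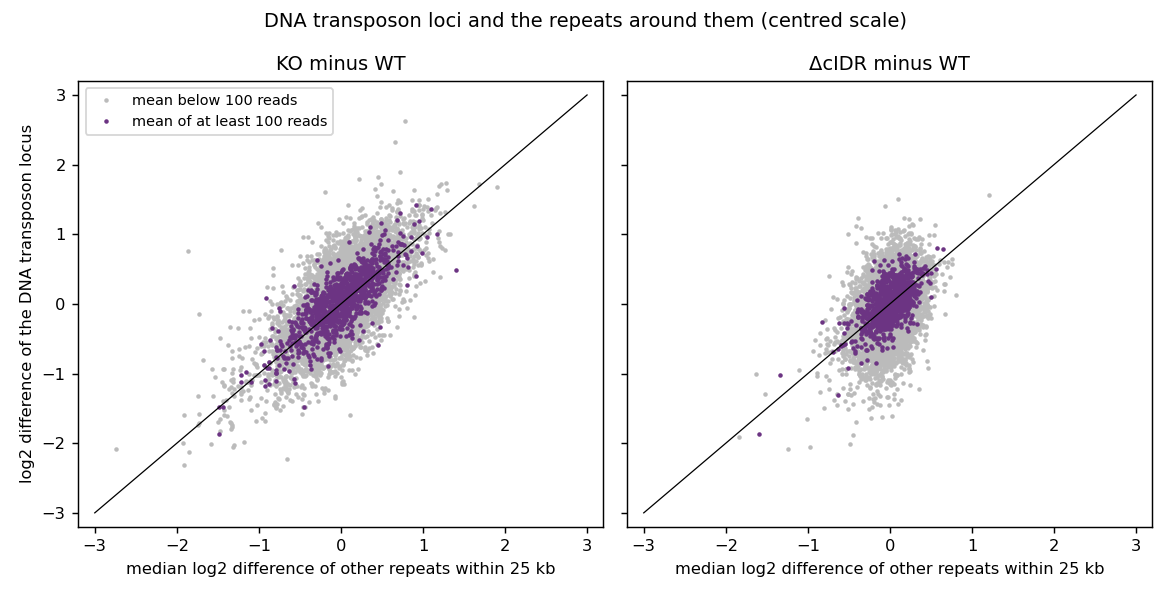
Centred log2 difference of each of 7840 DNA transposon loci (vertical) against the median difference of the other repeats within 25 kb (horizontal), for KO minus WT (left) and ΔcIDR minus WT (right), with loci of at least 100 reads in purple and the line of equality. The points follow the line, with r = 0.70 on the left and 0.40 on the right, and loci with fewer reads scatter more widely around it.

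A few well covered loci departed from their surroundings. They were chosen after their values were seen. A Tigger copy at chr9:21754689-21754880 had 210 and 188 reads in WT cells, 72 and 89 in KO cells and 219 and 215 in ΔcIDR cells, so both KO libraries lay below the other 4. Its centred KO minus WT was −1.48 ± 0.20 log2 (limma, adjusted p = 2.73e-05), and its 42 neighbours had −0.45. The other departure of over 1 log2 in KO minus WT was a Charlie copy at chr8:127657472-127657749, with 177 and 122, 127 and 96, and 103 and 149 reads. Its own difference was not called (−0.60 ± 0.22, limma, adjusted p = 0.106), and its neighbours had 0.46. A Tigger copy at chr13:35083423-35083541 had 320 and 422 reads in WT cells, 277 and 241 in KO cells and 545 and 518 in ΔcIDR cells. Its ΔcIDR minus KO was 1.34 ± 0.16 after centring (limma, adjusted p = 1.79e-06), beside −0.00 at its 8 neighbours. In KO minus WT, 2 of the 1070 loci with at least 100 reads departed by more than 1 log2 from their neighbours, in ΔcIDR minus WT 0, and in ΔcIDR minus KO 10.

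Loci called the same way often lay close together. Another locus called in the same direction lay within 200 kb for 112 of the 257 loci lower in KO after centring (43.6%) and 112 of the 249 higher in KO (45%), so that the first fell into 187 separate stretches and the second into 181. For ΔcIDR against KO it was 528 of the 831 lower loci (63.5%) and 288 of the 563 higher ones (51.2%). Among the loci not called that way, the share with such a called locus within 200 kb was 7.94% and 9.75% for lower and higher in KO against WT, and 19.7% and 15.9% for lower and higher in ΔcIDR against KO. Nearby loci can be pieces of 1 insertion or lie in 1 transcript, and the difference in shares was not tested. The distance was chosen after the data were seen.

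In KO against WT after centring, all 5 DNA transposon loci between chr19:42292125 and 42402001 were called lower. Their summed raw reads were 341 and 303 in WT cells, 170 and 145 in KO cells and 379 and 438 in ΔcIDR cells. All 5 between chr12:17808463 and 17983249 were lower as well, with 328 and 285, 157 and 111, and 291 and 325 reads. The median centred changes of the loci were −1.57 and −1.24, and those of the repeats around them −0.92 and −0.90. In the other direction, 4 of 4 loci within 1.94 kb at chr14:63741586-63743524, which may be parts of 1 insertion, had 237 and 265 reads in WT cells, 671 and 670 in KO cells and 200 and 217 in ΔcIDR cells. On chromosome 6, 6 of 8 loci between 95466679 and 95604095 were higher in KO, with 420 and 363, 987 and 847, and 283 and 316 reads in sum.

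The longest sets of calls were those lower in ΔcIDR than in KO after centring. Between chr6:93661914 and 94242263, 22 of 33 loci were called, with 2278 and 2383 reads in sum in WT cells, 4388 and 3607 in KO cells and 1718 and 1803 in ΔcIDR cells. Between chr8:115270419 and 115883333 it was 20 of 24 loci, with 2107 and 2015, 3456 and 3284, and 1280 and 1410 reads. Between chr11:12211031 and 12390010 it was 13 of 13, with 1089 and 932, 2195 and 1901, and 677 and 840. In raw reads KO was the highest group and ΔcIDR the lowest in each stretch, with no overlap. The sums do not carry the library factors of the deposited scale, on which this order need not hold. Charlie, Tigger and Tip100 copies were called side by side. The medians of the repeats around the loci were −0.85, −1.02 and −1.06, beside −0.94, −1.07 and −1.22 for the loci.

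hAT and TcMar differed little. The median of TcMar minus that of hAT was higher in KO than in WT by 0.039 ± 0.0098 log2 (SE), with 0.046 and 0.033 for KO, 0.0076 and −0.0076 for WT. The exact permutation test over libraries gave p = 0.333, which is the smallest that 2 against 2 libraries can give. For ΔcIDR against WT the same contrast was −0.0063 ± 0.023 (exact permutation p = 1). Set against the rest of the repeats, DNA transposon loci lay 0.06 ± 0.05 log2 higher in KO than in WT and −0.04 ± 0.07 in ΔcIDR minus WT (exact permutation p = 0.667 for both). With the other families minus hAT, 9 such tests were run, and the same 9 again without chromosomes 6, 8 and 11. Since none can give less than 0.333, none can pass after adjustment.

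The 85 loci under m6A intervals had a centred median KO minus WT of −0.04 ± 0.06 log2, against 0.06 ± 0.06 for the 8144 outside. Of the 85, 2 were called higher and 5 lower, where 3.13% and 4.18% of all repeat loci were. For ΔcIDR minus WT the medians were 0.08 ± 0.07 and −0.03 ± 0.08, and for ΔcIDR minus KO 0.09 ± 0.06 and −0.09 ± 0.06. In the last comparison 17 loci under intervals were called higher and 6 lower, against 546 and 825 outside. The medians of the sets thus had opposite signs in the 3 comparisons, and the difference between the sets was not tested.

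Summed over all their loci, including those under the minimum, 20 DNA transposon families were tested among 57 repeat families. On the deposited scale limma called 0 of the 20 in KO against WT and 0 in ΔcIDR against WT, where 0% of all families were called and no DNA transposon family had an unadjusted p below 0.05. In ΔcIDR against KO it called 1, hAT-Ac, with 1.06 ± 0.31 log2 (adjusted p = 0.0109), where 14% of all families were called higher. Over the 3 comparisons this 1 call became 47 when KO replicate 1 was dropped, 27 when KO replicate 2 was, and 0 when any of the other 4 libraries was. hAT-Ac had 5795 and 5098 reads in WT cells, 5963 and 5367 in KO cells and 5698 and 6528 in ΔcIDR cells. A single locus, the second chr1 piece given above, held 45% of these. The first piece beside it held 1857 and 1607, 1920 and 1688, and 1780 and 2215. Most of the family's reads thus came from 1 site, and the hAT-Ac calls here and below largely describe it. The 52 repeats of other classes within 25 kb of the first piece differed by 0.72 log2 in ΔcIDR minus KO, with loci centred. In hAT-Tip100 the chr17 copy held 75.3%.

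With the families centred on their median, limma called hAT-Ac lower in KO than in WT by −0.21 ± 0.05 log2 (adjusted p = 0.00139) and Crypton higher by 0.28 ± 0.07 (adjusted p = 0.00401), where 1.75% of all families were higher and 7.02% lower. Crypton had 763 and 668 reads in WT cells, 1138 and 970 in KO cells and 519 and 655 in ΔcIDR cells. In ΔcIDR against WT, 11 of the 20 were lower and hAT-Ac was higher, with 35.1% and 5.26% of all families. Those 11 include hAT-Charlie (−0.16 ± 0.06), TcMar-Tigger (−0.15 ± 0.06) and Crypton (−0.33 ± 0.07). In ΔcIDR against KO 9 were lower and 1 higher, with 29.8% and 14% of all families. Dropping WT replicate 2 left 3 lower in ΔcIDR against WT, and dropping WT replicate 1 or either KO library left 7. The higher call of hAT-Ac was lost when any library but WT replicate 1 was dropped, and with a replicate block. In KO against WT no DNA transposon family was called when either WT library was dropped, and Crypton was not when KO replicate 1 was. In ΔcIDR against KO 5 were lower when either KO library was dropped.

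Part of the family calls depended on chromosomes 6, 8 and 11. With those left out and the families centred again, 0 of the 20 were lower in ΔcIDR than in WT and 1, hAT-Ac, was higher by 0.23 ± 0.06 log2 (limma, adjusted p = 0.0298), where 1.75% of all families were lower and 8.77% higher. An unadjusted p below 0.05 was reached by 3. In KO against WT hAT-Ac no longer passed (−0.09 ± 0.06, limma, adjusted p = 0.501), and Crypton (0.31 ± 0.10), Crypton-A (0.42 ± 0.13) and unclassified hAT (0.21 ± 0.07) were higher (limma, adjusted p = 0.0478 for each), where 10.5% of all families were higher. In ΔcIDR against KO 4 of the 20 were lower and 1 higher, with 17.5% and 12.3% of all families. They were Crypton (−0.52 ± 0.10), Crypton-A (−0.61 ± 0.13), unclassified hAT (−0.30 ± 0.07), TcMar-Tc2 (−0.18 ± 0.06) and, higher, hAT-Ac (0.32 ± 0.06). The deposited-scale calls over the 3 comparisons went from 1 to 7 without those chromosomes.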

How the data were processed

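Chromatin-associated RNA of 3 genotypes was profiled for m6A, with an m6A spike-in added before fragmentation, per the labels' protocols. The authors deposited a spike-in-scaled signal for 6 libraries, per repeat locus and per interval. Dividing a column by its smallest nonzero value gave whole reads for 100% of values (tolerance 1e-06), so each library carries a single factor. Per the submitters' processing notes the build is GRCm39 and the tools include bedtools, featureCounts, MACS2, Picard, SAMtools, HISAT2 and fastp, with no version or role. How reads in several loci were counted, and whether replicates were pooled for intervals, is not given in the sources used here, nor is whether starts count from 0 or 1.

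All 234605 repeat loci with a mean of at least 20 reads were fitted with limma 3.58.1 in R 4.3.3 (1 mean per group, trend) on log2(signal + 5), with Benjamini-Hochberg adjustment over all of them and a threshold of 0.05. Centring subtracts each library's median. As the signal was neither CPM nor raw counts, edgeR 4.0.16 on the recovered reads, on the deposited scale and with TMM, and DESeq2 1.42.0 were alternatives, edgeR on the deposited scale calling 219 DNA transposon loci in KO against WT. Family sums were fitted the same way. The fits were tested on simulated data. Joins and summaries used numpy 2.4.6 and pandas 2.3.3 under Python 3.11.15.

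The loci, families and comparisons were chosen with earlier results of these data known. Named loci are the 3 highest per kb (at least 100 bp) in each superfamily, the 5 largest called differences each way without overlap between the libraries of the groups (or, with fewer than 3 passing, those 3 with the lowest p), the 3 longest, and those said to be chosen later. The rule also named the 3 loci on either side of the minimum, which were tied with others and are given as counts. Loci of at least 1000 reads and departures from neighbours were added after the values were seen. No gene names or sequences were used, since the reference tables at hand are of another build, so a check of Alkbh5 and of stem cell markers was not made here.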

Additional observations from a re-analysis of the deposited data

How the results depend on the processing

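Counts of called loci, in the order KO against WT, ΔcIDR against WT and ΔcIDR against KO (234, 2 and 1807 on the deposited scale), moved with the scale and the filter. After centring they were 506, 8 and 1394, with RPM 542, 10 and 1467, and with edgeR and TMM 596, 8 and 1448. DESeq2 gave 220 (100 higher and 120 lower), 5 and 699 (278 and 421), and edgeR on the deposited scale 219, 1 and 1671. With all loci of a mean of at least 1 read fitted they were 50, 0 and 895, and among loci of at least 50 reads 115, 1 and 971. A pseudocount of 1 gave 1 in ΔcIDR against WT. Leaving out 1 library gave 10 to 1428, 0 to 270 and 356 to 3645, and after centring 102 to 621, 3 to 25 and 473 to 1472. Without chromosomes 6, 8 and 11 the centred counts were 307, 5 and 870. The median KO minus WT was −0.52 to 0.084 without 1 library, ΔcIDR minus WT 0.28 to 0.36 and ΔcIDR minus KO 0.23 to 0.84. Centred, the medians of ΔcIDR minus WT and minus KO were −0.034 and −0.092, and on RPM −0.084 and −0.15. Family calls over the 3 comparisons were 1 as deposited, 24 centred, 7 without chromosomes 6, 8 and 11, and 0 to 47 without 1 library. The share of loci under an interval was 0.595% when 50% of the locus had to be covered. The cause of these moves was not tested. For RPM, DESeq2, the other filters and pseudocounts, no share of all repeat loci is given here. The same holds for locus counts without a library or without chromosomes 6, 8 and 11. Those moves are thus not shown to be particular to DNA transposon loci.

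Whether the replicate numbers pair libraries across groups is not known here. The deviations between replicates correlated at 0.06 for WT with KO, −0.18 for WT with ΔcIDR and −0.07 for KO with ΔcIDR. With a replicate block the counts were 135, 0 and 1381 loci and 0 families, and centred 389, 5 and 1213. With the ΔcIDR numbers crossed, a pairing added after seeing the data, the block gave 260, 2 and 1892, and centred 832, 91 and 1762. For locus counts with either block no share of all repeat loci is given here, so their moves are not shown to be particular to DNA transposon loci. The centred counts without a library, with a block or without chromosomes, and the families without chromosomes, were also added later. With 20 to 50 reads at most of these loci, small differences were not detectable.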
